A study of Mus musculus with 12 samples.

Results

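The apolipoproteins and the chylomicron assembly factor that the small intestine uses to export fat were followed as 8 genes, out of the 23366 gene entries that each of 12 mouse small-intestine RNA-seq libraries held. The 8 were chosen by symbol and are the apolipoprotein genes Apoa1, Apoa2, Apoa4, Apob, Apoc2, Apoc3 and Apoe and the lipid transfer gene Mttp. All 8 had entries in every library and passed the filter on low counts, which left 15342 genes for testing. Apoa2 did so only through AE, the group where it is highest, so comparisons of AE with other groups are no test of it and it is left out of their counts.

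The enterocyte packs dietary fat into chylomicrons, large particles that leave the cell through the Golgi and reach the lymph. Each particle is built on 1 molecule of apolipoprotein B, encoded by Apob, onto which microsomal triglyceride transfer protein, encoded by Mttp, loads lipid in the endoplasmic reticulum. Smaller apolipoproteins coat the surface: ApoA-I and ApoA-IV are added in the intestine, ApoC-II switches on lipoprotein lipase in the circulation, ApoC-III restrains it, and ApoE directs remnants to liver receptors. ApoA-II is a partner of ApoA-I in high-density lipoprotein and is known mainly from liver, and ApoE is made largely by liver and macrophages.

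Groups held 3 libraries each, from mice of a mixed C57BL/6 and CD1 background. E12.5 and E14.5, named by embryonic day, were embryonic epithelium sorted as EpCAM+ CD31- CD45- DAPI- cells, which selects live epithelium and leaves out the endothelial and blood lineages. ISC were adult crypt cells with high Lgr5-EGFP, the reporter for the stem-cell receptor Lgr5. AE were adult villus cells called enterocytes in the labels and sorted with the same 4 criteria as the embryonic cells, so the gate held no enterocyte marker and other villus epithelial types could pass it. Both adult groups came from Lgr5EGFP-Cre-ERT males at postnatal day 60, with 1 gut per library, E12.5 libraries came from pools of 20 embryos, and the E14.5 pool size is not given in the sources used here. In the 6 embryonic libraries the age label names the other stage than the title, so every embryonic direction below rests on the titles.

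Gene counts per library ran from 12.6 to 45.2 in units of 1000000. Enterocyte markers (Alpi, Sis, Lct, Fabp2, Krt20 and Anpep) summed to 26873 to 53214 CPM in AE against 768 to 1596 in ISC, where CPM is normalised counts per 1000000. Stem-cell markers (Lgr5, Olfm4, Ascl2, Smoc2 and Axin2) summed to 6992 to 7679 CPM in ISC and to 705 to 830 in AE. Each adult label went with the group where its markers were highest. AE still held Olfm4 at 538 to 641 CPM. Mki67, a gene of dividing cells, was at 641, 344 and 427 CPM in AE and at 1857 to 2380 in ISC. The part of crypt or dividing cells in AE was not tested. Epcam, the sorted surface protein, was at 429 to 875 CPM in the embryonic libraries. Reads aligned to more than 1 place were listed at 0 in E14.5 and AE and at up to 5.96% of reads in E12.5 and ISC. For E14.5 against E12.5, ISC against E14.5, AE against ISC and AE against E12.5, that difference and the group cannot be told apart. The listing is shared by ISC and E12.5, and by AE and E14.5. Separately, ISC replicate 2 was highest of its group for every member but Apoa2, and AE replicate 1 was lowest for every member but Apoe. Counts of called genes are also given without this pair, which was chosen after the values were seen.

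Apoa1, Apoc3 and Apoa4 lie next to each other, in that order, on chromosome 9, followed by Apoa5. Apoc2, Apoc4, Apoc1 and Apoe are neighbours on chromosome 7, while Apob, Mttp and Apoa2 lie alone on chromosomes 12, 3 and 1. The stretches before the start sites are shown for 4 of the members that rose in AE while differing in the embryo. They are from RefSeq on GRCm38.p6, 5′ to 3′ on the strand of the gene, and capitals mark matches to the motifs named after them.
Apoa1, chr9:46228430-46228629, plus strand: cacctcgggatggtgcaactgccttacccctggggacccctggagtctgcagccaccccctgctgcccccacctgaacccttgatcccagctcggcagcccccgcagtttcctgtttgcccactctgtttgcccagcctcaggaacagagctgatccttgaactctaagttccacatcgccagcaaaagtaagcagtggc
Apoa4, chr9:46240644-46240843, plus strand: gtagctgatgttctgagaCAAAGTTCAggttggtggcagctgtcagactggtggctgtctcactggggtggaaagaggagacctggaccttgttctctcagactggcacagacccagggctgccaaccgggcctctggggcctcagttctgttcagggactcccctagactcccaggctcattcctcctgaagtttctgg
Apoc2, chr7:19677942-19678141, minus strand: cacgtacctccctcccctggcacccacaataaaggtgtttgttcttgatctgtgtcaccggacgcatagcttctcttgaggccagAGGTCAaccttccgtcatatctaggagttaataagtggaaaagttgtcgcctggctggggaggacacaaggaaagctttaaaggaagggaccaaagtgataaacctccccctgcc
Apob, chr12:7977477-7977628, plus strand: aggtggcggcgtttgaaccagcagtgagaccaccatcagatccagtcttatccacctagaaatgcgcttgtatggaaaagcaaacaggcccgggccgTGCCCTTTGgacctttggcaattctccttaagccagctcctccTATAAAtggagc
The capitals in Apoa4, CAAAGTTCA, begin 182 bases before the start, and those in Apob, TGCCCTTTG on the reverse strand, begin 103 bases before it. Both match CAAAGNNCA, a form of the element bound by the nuclear receptor HNF4, which was added to the search after these sequences had been seen. Of 32851 promoters, 5.49% held that pattern within 250 bases before the start on either strand. Apob also held TATAAA, the TATA box, 60 bases before its start, as did 12.4% of promoters on either strand. Positions are counted from the start site of each promoter entry. The Apob stretch shown, of 152 bases, was cut where the RefSeq span of the gene begins. It therefore ends short of the start site from which its positions are counted. Apoc2 held the nuclear receptor core motif AGGTCA at 115 bases before the start, found in 14.0% of promoters. The Apoa1 stretch held no match to these patterns or to CAAAGTCCA, AGATAA or CCAAT, found in 0.384%, 9.99% and 33.9% of promoters, nor to the HNF1 element, found in 0.00913%. Mttp also rose in AE and is not shown, and its entry held no match to any of these patterns. A match describes letters in this window only. Entries were found for 7 of the 8 members, all but Apoc3.

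The comparisons ask how the gene set changed over early gut development, between embryonic epithelium and adult stem cells, and from stem cell to villus cell. The step from ISC to AE moved all 7 genes other than Apoa2: 6 rose and Apoe fell (adjusted p under 0.05, edgeR's quasi-likelihood test), where 67.8% of all genes tested were called, 32.6% higher and 35.2% lower. The libraries of ISC and AE did not overlap for any of the 7, and did not for 66.3% of all genes. From E12.5 to E14.5 the called members numbered 6 of 8, with 5 higher (Apoa1, Apoa4, Apoc2, Apoc3 and Mttp) and Apob lower, against 49.2% of all genes called, 23.6% higher and 25.6% lower. From E14.5 to ISC 3 rose (Apoa4, Apoc2 and Apoc3), against 60.7% of genes called, 30.2% higher and 30.6% lower. In bulk libraries such as these, a change in the share of cells that express a gene and a change in RNA per cell cannot be told apart.

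**Figure D1:**
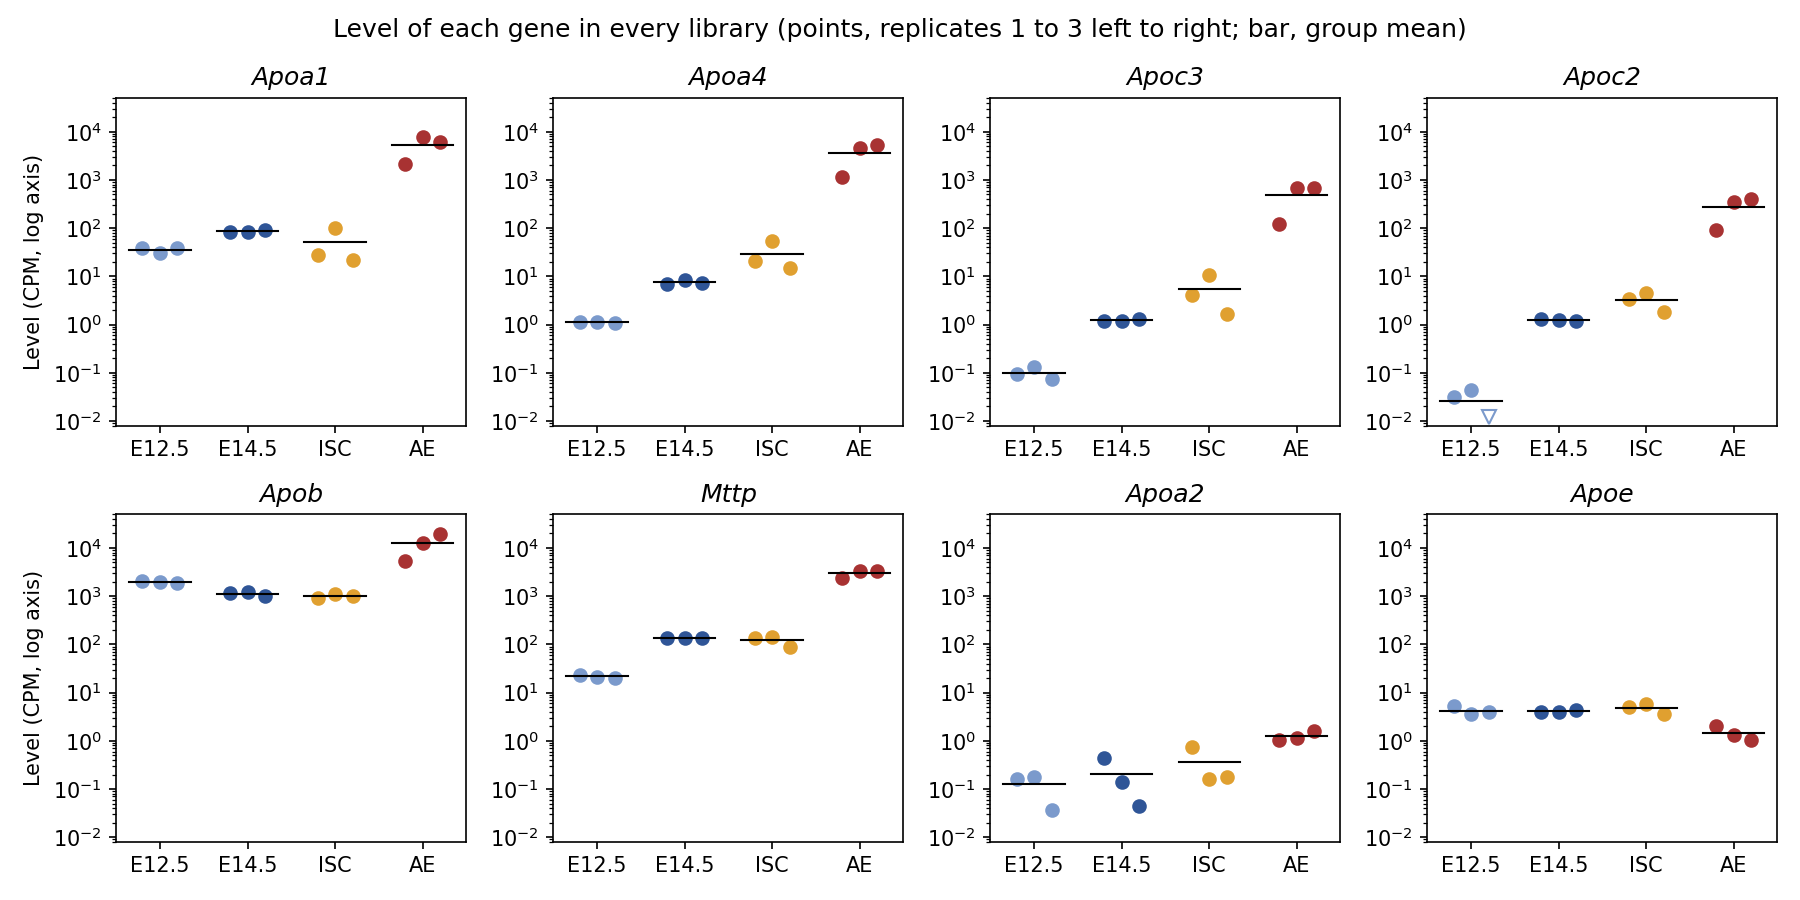
Level of each of the 8 genes in every library, in CPM on a log axis, with points for replicates 1 to 3 from left to right and a bar at the group mean. An open triangle marks a library with 0 counts (Apoc2 in E12.5). AE lies above every other library for all genes but Apoe, which is lowest there.

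The remaining comparisons gave 5 called members for ISC against E12.5 (Apoa4, Apoc2, Apoc3 and Mttp higher, Apob lower), with 68.5% of genes called and 33.9% called higher. All 7 genes other than Apoa2 were called in AE against E14.5, 6 of them higher, beside 78.2% of genes called and 36.7% called higher. The counts were the same in AE against E12.5, beside 82.1% and 38.4%. The median log2 change of the 7 was 6.44 for AE against ISC, where the median of all genes tested was -0.05. It was 2.67 for E14.5 against E12.5, beside -0.02, and 0.24 for ISC against E14.5, beside -0.0048.

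The embryonic count rests on a spread estimated from all 12 libraries, adult ones included. Without any 1 of the 6 embryonic libraries it was 3 rather than 6, with Apoa1, Apob and Apoc3 past the threshold no longer. Those fits called from 6151 of 15588 genes, without E14.5 replicate 1, to 6631 of 15564, without E12.5 replicate 1. With limma-voom the count was also 3 (Apoa1, Apob and Mttp), where 7945 of 15342 genes were called. In the 6 embryonic libraries alone the same 6 genes passed, in a fit where 67.7% of all genes were called, the largest adjusted p being 4.13e-06, for Apob, and the standard error of Apoa1 was 0.09 on the log2 scale against 0.49 over all libraries. Without ISC replicate 2 and AE replicate 1 the called members numbered 6 for E14.5 against E12.5, 4 for ISC against E14.5 and 6 for ISC against E12.5. Of 15599 genes tested, 8569, 9455 and 10705 were called in these 3 comparisons. In AE against ISC all 7 genes other than Apoa2 passed, beside 10127 of all genes.

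**Figure D2:**
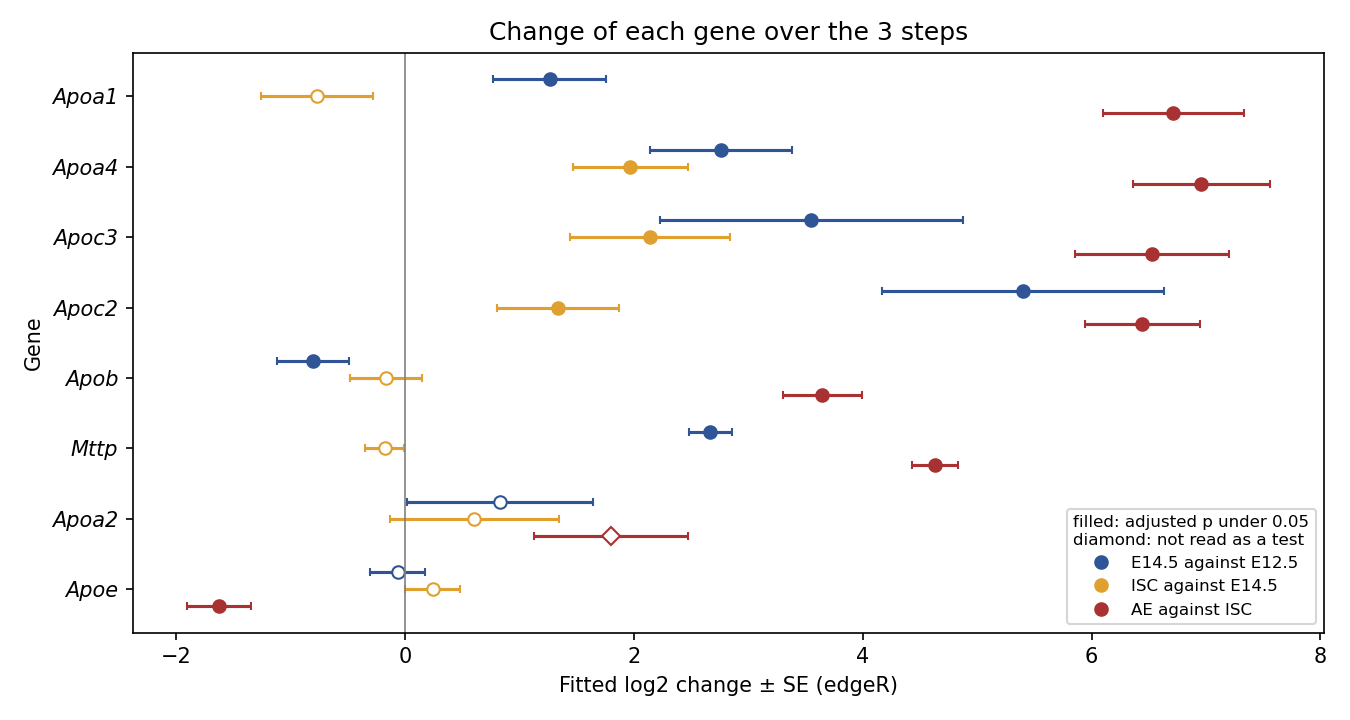
Fitted log2 change of each gene (points) with its standard error (bars) over 3 steps, E14.5 against E12.5, ISC against E14.5 and AE against ISC, filled where the adjusted p is under 0.05. A diamond marks Apoa2 in AE against ISC, which is not read as a test. The AE against ISC points of Apoa1, Apoa4, Apoc3 and Apoc2 lie between 6.44 and 6.96, those of Mttp and Apob at 4.63 and 3.65, and that of Apoe at -1.63.

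Apob, the scaffold of the particle, was already abundant at E12.5, the earlier embryonic stage. It stood at 2102, 1944 and 1898 CPM in the 3 E12.5 libraries, at 1161, 1230 and 1015 in E14.5, at 896, 1117 and 1022 in ISC and at 5378, 12890 and 19762 in AE. AE was highest and E12.5 next, both apart from the rest, while E14.5 and ISC overlapped and did not differ past the threshold (adjusted p = 0.663). Apob fell 1.74-fold from E12.5 to E14.5 (log2 change -0.80, SE 0.31, edgeR adjusted p = 0.0475) and rose from ISC to AE (log2 change 3.65, SE 0.35, adjusted p = 4.87e-07). AE exceeded E12.5 by 2.68 on the log2 scale (adjusted p = 3.50e-06), the smallest such rise among the 6 genes called higher there.

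The liver, which also makes ApoB, lies beside the embryonic gut, so its markers are given with these levels. Alb was at most 0.977 CPM and Ahsg at 0 in all 6 embryonic libraries. The 9 liver markers summed to 183 to 221 CPM in E12.5 libraries and 160 to 179 in those of E14.5, against 24.4 to 38.0 in ISC and 92.0 to 134 in AE, led by Afp in AE (81.4 to 123 CPM) and by Afp, Trf and Ttr in the embryo. Of 6 tested, 4 fell from E12.5 to E14.5, and the part of liver RNA in the Apob level was not tested.

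Mttp, the lipid loader, rose over the embryonic step at which Apob fell. It stood at 23.2, 21.5 and 20.0 CPM in E12.5, at 136, 138 and 138 in E14.5, at 133, 144 and 87.0 in ISC and at 2417, 3274 and 3347 in AE. E12.5 was below every other library and AE above, with E14.5 and ISC overlapping (adjusted p = 0.391). Mttp rose 6.36-fold from E12.5 to E14.5 (log2 2.67, SE 0.19, adjusted p = 1.03e-07) and 24.8-fold from ISC to AE (4.63, SE 0.20, adjusted p = 6.17e-10).

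Mesenchymal markers moved with the same embryonic step: all 9 rose from E12.5 to E14.5, and their sum was 22.2 to 31.7 CPM in E12.5 and 239 to 315 in E14.5. Pancreas markers summed to 9.59 to 27.7 CPM in E12.5 and 44.3 to 159 in E14.5, where 2 of 3 tested rose, led by Ctrb1, a digestive protease precursor (23.2-fold, adjusted p = 4.98e-05). Of 7 enteric neural markers 2 rose and 1 fell, and of 5 endothelial markers 2 rose. The part of these cell types in the embryonic changes of the 8 genes was not tested. In ISC and AE the mesenchymal markers summed to at most 2.85 CPM.

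Apoa1, the main protein of high-density lipoprotein and a coat protein of new chylomicrons, was the most abundant of the 8 per exon length in AE. It stood at 38.4, 30.1 and 38.7 CPM in E12.5, at 84.0, 83.1 and 91.2 in E14.5, at 28.3, 102 and 21.9 in ISC and at 2183, 7612 and 6151 in AE. The E12.5 and E14.5 ranges were apart, whereas ISC replicate 2 lay above all 6 embryonic libraries and the other 2 ISC libraries lay below all 6. Apoa1 rose 2.41-fold from E12.5 to E14.5 (log2 1.27, SE 0.49, adjusted p = 0.0469) and 105-fold from ISC to AE (6.71, SE 0.62, adjusted p = 3.50e-07).

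ISC could not be placed against the embryo for Apoa1. Against E14.5 the log2 change was -0.77 (adjusted p = 0.191) with all libraries and -1.78 (adjusted p = 0.00187) without ISC replicate 2, so a lower level in ISC was called only without that library. Against E12.5 it was 0.50 (adjusted p = 0.381) with it and -0.51 without it (adjusted p = 0.254).

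Apoa4, a lipid-responsive apolipoprotein made chiefly by the small intestine, rose at each of the 3 steps. It stood at 1.12, 1.11 and 1.10 CPM in E12.5, at 6.98, 8.31 and 7.38 in E14.5, at 21.0, 53.0 and 15.0 in ISC and at 1132, 4682 and 5261 in AE. No 2 groups overlapped, in the order E12.5, E14.5, ISC and AE. The folds were 6.79 (log2 2.76, SE 0.62, adjusted p = 0.00218), 3.91 (1.97, SE 0.50, adjusted p = 0.00380) and, from ISC to AE, 124.5 (6.96, SE 0.60, adjusted p = 1.93e-07). Without ISC replicate 2 the log2 change from E14.5 to ISC was 1.24 (adjusted p = 0.0336).

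Of the 50-base stretches of Apoa4, 60.9% were shared with other annotated transcripts, all of them from Gm10680 and Gm47528 at the same place on the other strand, and none from elsewhere in the genome. For Apoc2 the share was 78.3%, all with Gm44805, which overlaps it on the same strand. Mttp shared 7.23% with its neighbour Trmt10a and with Gm43691, and the other 5 members shared none. The strand setting of the counting was not given, so whether reads in the shared stretches of Apoa4 came from it or from the antisense genes is uncertain, and for Apoc2 no strand setting could tell it from Gm44805.

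Apoc3, the lipase inhibitor encoded between Apoa1 and Apoa4, was near the limit of detection at E12.5, where the 3 libraries held 3, 3 and 2 counts. It stood at 0.0963, 0.133 and 0.0734 CPM in E12.5, at 1.20, 1.19 and 1.27 in E14.5, at 4.12, 10.5 and 1.70 in ISC and at 123, 675 and 691 in AE. As for Apoa4, no 2 groups overlapped and the order was E12.5, E14.5, ISC and AE. The pooled counts rose 12.2-fold from E12.5 to E14.5, with an exact 95% interval of 6.04 to 28.9 for counting error only (fitted log2 3.55, SE 1.32, adjusted p = 0.0385).

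From E14.5 to ISC the fold of Apoc3 was 4.41 (log2 2.14, SE 0.70, adjusted p = 0.0165), and without ISC replicate 2 the log2 change was 1.20 (adjusted p = 0.176). It rose 92.2-fold from ISC to AE (6.53, SE 0.67, adjusted p = 1.05e-06).

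Apoc2, encoding the lipase cofactor, showed the same order as Apoa4 and Apoc3 although it lies on another chromosome. The E12.5 libraries held 1, 1 and 0 counts, and its levels were 1.30, 1.25 and 1.19 CPM in E14.5, 3.42, 4.41 and 1.83 in ISC and 90.0, 348 and 393 in AE. E14.5 exceeded E12.5 by a pooled count ratio of 50.7, with an exact 95% counting interval of 13.8 to 423 (adjusted p = 0.00252). Apoc2 rose 2.53-fold from E14.5 to ISC (log2 1.34, SE 0.54, adjusted p = 0.0434), a call lost with DESeq2 (adjusted p = 0.0517), limma-voom (0.357) and relative log expression scaling (0.0549), without ISC replicate 2 (log2 1.02, adjusted p = 0.172) and without any of 7 other single libraries. It rose 87.1-fold from ISC to AE (6.44, SE 0.50, adjusted p = 7.34e-08).

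Apoe fell where the others rose. It stood at 5.17, 3.60 and 3.93 CPM in E12.5, at 3.99, 3.90 and 4.31 in E14.5, at 4.94, 5.94 and 3.57 in ISC and at 2.00, 1.31 and 1.03 in AE. The first 3 groups overlapped, with adjusted p from 0.406 to 0.844 between them, and AE lay below every other library. The decrease from ISC to AE was 3.09-fold (log2 -1.63, SE 0.28, adjusted p = 0.000134), and AE was 2.61-fold below E14.5 (adjusted p = 0.000350).

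Macrophages are a known source of ApoE, and the labels give a gate against CD45 for 3 of the 4 groups, all but ISC. The 10 white-cell markers summed to 15.2 to 30.9 CPM in AE and to 17.9 to 22.2 in ISC. Of 6 that passed the filter, Mrc1 rose and Cd14 fell from ISC to AE. Their log2 changes were 3.25 (adjusted p = 0.000200) and -0.78 (0.00744). Ptprc (CD45) stood at 0.336 ± 0.188 CPM in ISC and 1.82 ± 0.619 in AE (fitted log2 change 2.36). That is given as a description because Ptprc, like Apoa2, passed the filter through AE alone. C1qa held at most 3 counts in any group. The part of white-cell RNA in the Apoe level was not tested. Among the neighbours of Apoe and Apoc2, Apoc4 was at most 0.280 CPM in any library.

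Apoa2 was the scarcest member in AE except Apoe per exon length, and 57 counts in AE were its largest group total. Its levels were 0.160, 0.178 and 0.0367 CPM in E12.5, 0.449, 0.137 and 0.0439 in E14.5, 0.760, 0.163 and 0.174 in ISC and 1.02, 1.14 and 1.60 in AE. AE lay above every other library, and the other 3 groups overlapped. The AE mean was 3.49-fold above that of ISC in the fit (log2 1.80, SE 0.67), given as a description because Apoa2 passed the filter through AE alone.

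Per kilobase of exon the make-up of the set turned over between the embryo and the villus. Apob led in E12.5 at 142 ± 7.67 CPM per kb (SD, n = 3), Apoa1 following at 28.9 ± 3.95 and Mttp at 3.48 ± 0.255. At E14.5 Apob was at 81.5 ± 7.89 and Apoa1 at 69.7 ± 3.59, and in replicate 3 Apoa1, at 73.8, stood above Apob, at 72.8. In ISC Apob led at 72.6 ± 7.99, with Apoa1 at 41.0 ± 35.9 and Mttp and Apoa4 at 19.6 ± 4.89 and 16.4 ± 11.3, which do not differ beyond their spread. In ISC replicate 2 Apoa1, at 82.3, stood above Apob, at 80.2.

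On the same scale Apoa1 stood above Apob in every AE library. Apoa1 reached 4301 ± 2273 CPM per kb and Apoa4 2034 ± 1232, ahead of Apob at 910 ± 516. Apoc3 and Mttp, at 489 ± 319 and 485 ± 83.4, did not differ beyond their spread, Apoc2 followed at 341 ± 201, and Apoa2 (2.33 ± 0.570) and Apoe (0.675 ± 0.233) were far below. Among the 21732 genes with an exon length, Apoa1 ranked 4 and Apoa4 15 in AE by mean level per kb, with Apob at 40, Apoc3 at 79 and Mttp at 81. Apob had ranked 92 at E12.5.

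Summed per kb, the 8 genes stood at 178 ± 10.2 CPM at E12.5, 182 ± 4.74 in E14.5 and 162 ± 62.7 in ISC and reached 8563 ± 4473 in AE. The Apob share of that sum was 80.1% ± 1.73 at E12.5 and 44.6% ± 3.22 at E14.5, then 48.1% ± 13.6 in ISC and 10.8% ± 2.39 in AE. Apoa1 made up 16.3% ± 1.88, 38.2% ± 2.93, 22.5% ± 11.1 and 50.6% ± 4.81. Apoa4 went from 0.346% ± 0.0166 at E12.5 to 2.28% ± 0.171 at E14.5, and stood at 9.40% ± 2.83 in ISC and 22.5% ± 4.01 in AE, with no overlap between groups. As plain counts the 8 genes took 0.229% ± 0.0118 of gene counts at E12.5 and 0.158% ± 0.0104 at E14.5, then 0.129% ± 0.0226 for ISC and 1.83% ± 0.792 for AE.

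**Figure D3:**
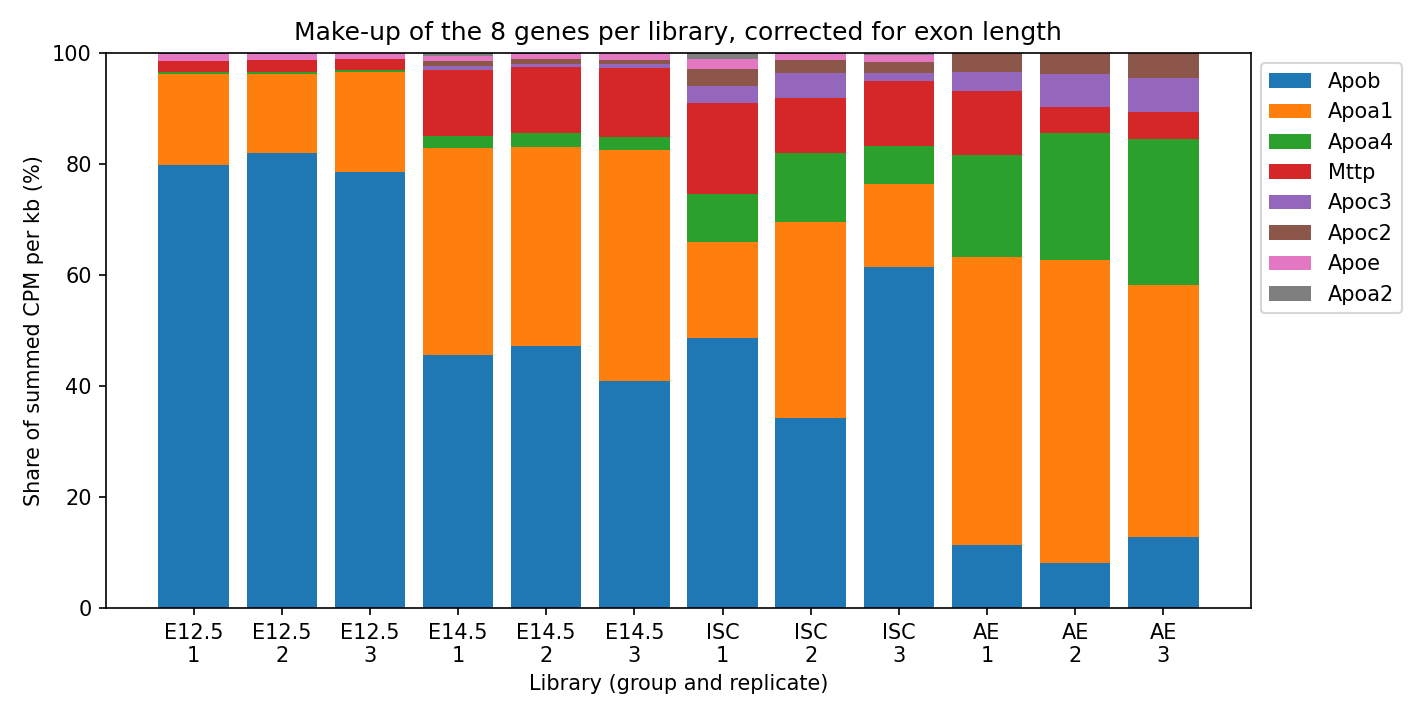
Share of each gene in the summed level per kb of exon of the 8 genes (percent, vertical axis) in each of the 12 libraries (group and replicate, horizontal axis). Apob fills most of each E12.5 bar, about 80.1% on average, and 10.8% of the AE bars, where Apoa1 fills 50.6%.

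Ratios within a library separate the make-up of the set from its total. Apoa4 stood to Apoa1, per kb, at 0.0199, 0.0251 and 0.0194 in E12.5, at 0.0565, 0.0682 and 0.0551 in E14.5, at 0.507, 0.355 and 0.466 in ISC and at 0.353, 0.419 and 0.582 in AE. ISC and AE overlapped although both genes were far higher in AE, and both adult groups lay above every embryonic library. By an exact two-sided permutation test of log2 ratios, whose smallest possible p for 3 against 3 is 0.1, AE and ISC gave p = 1, with a 1.01-fold ratio, and ISC and E14.5 p = 0.1, with a 7.33-fold ratio (adjusted p = 0.15 over 9 tests).

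Apoc3 to Apoa1 followed the same course, with embryonic means of 0.00359 and then 0.0173, and adult means of 0.133 for ISC and 0.105 for AE. ISC and AE overlapped (exact permutation p = 0.5), and each embryonic stage lay apart from the next group (exact permutation p = 0.1 each). Mttp to Apob had another course: 0.0245 ± 0.000658 at E12.5, 0.273 ± 0.0275 at E14.5, 0.272 ± 0.0730 for ISC and 0.653 ± 0.322 for AE. That ratio rose 11.1-fold between the embryonic stages without overlap (exact permutation p = 0.1), overlapped between E14.5 and ISC (1.03-fold lower in ISC, p = 0.9, exact) and was 2.28-fold higher in AE than in ISC without overlap (p = 0.1, exact).

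**Figure D4:**
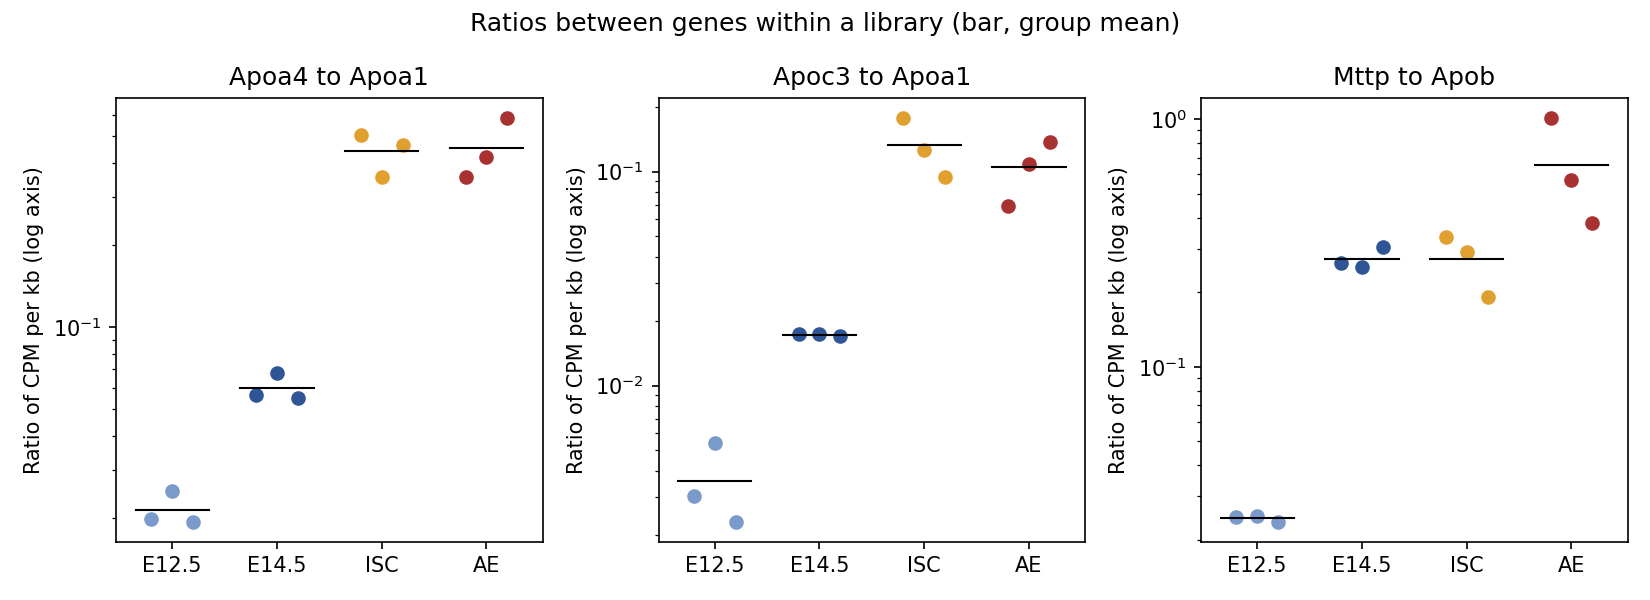
Ratios of CPM per kb within each library (log axes) for Apoa4 to Apoa1, Apoc3 to Apoa1 and Mttp to Apob, with points for libraries and a bar at the group mean. The first 2 ratios overlap in ISC and AE (means of 0.443 and 0.452 for Apoa4 to Apoa1) and lower in the embryo, and Mttp to Apob differs between E12.5 (0.0245) and E14.5 (0.273).

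Within the adult groups most of the 8 genes moved together from library to library. ISC replicate 2 was highest of the 3 ISC libraries for every member but Apoa2, and its enterocyte markers summed to 1596 CPM against 993 and 768 in replicates 1 and 3. The genes differed in how far they moved: highest over lowest ISC library was 6.20 for Apoc3, 4.64 for Apoa1, 3.53 for Apoa4 and 2.42 for Apoc2, against 1.66 for Mttp and 1.25 for Apob. AE replicate 1 was lowest for every member but Apoe, for which it was highest, and its enterocyte markers summed to 26873 CPM against 52878 and 53214.

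In AE the highest over the lowest library was 5.62 for Apoc3, 4.65 for Apoa4, 4.37 for Apoc2, 3.67 for Apob and 3.49 for Apoa1, against 1.39 for Mttp. Without ISC replicate 2 and AE replicate 1, a pair chosen after the values were seen, the log2 change from ISC to AE was 8.10 for Apoa1, 8.11 for Apoa4, 7.95 for Apoc3, 7.19 for Apoc2, 4.91 for Mttp and 4.09 for Apob. Each was larger than with all libraries, which the choice of the pair fixed in advance. For each of these genes ISC replicate 2 was the highest ISC library and AE replicate 1 the lowest AE library. The part of enterocyte RNA among the ISC libraries in these values was not tested.

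**Figure D5:**
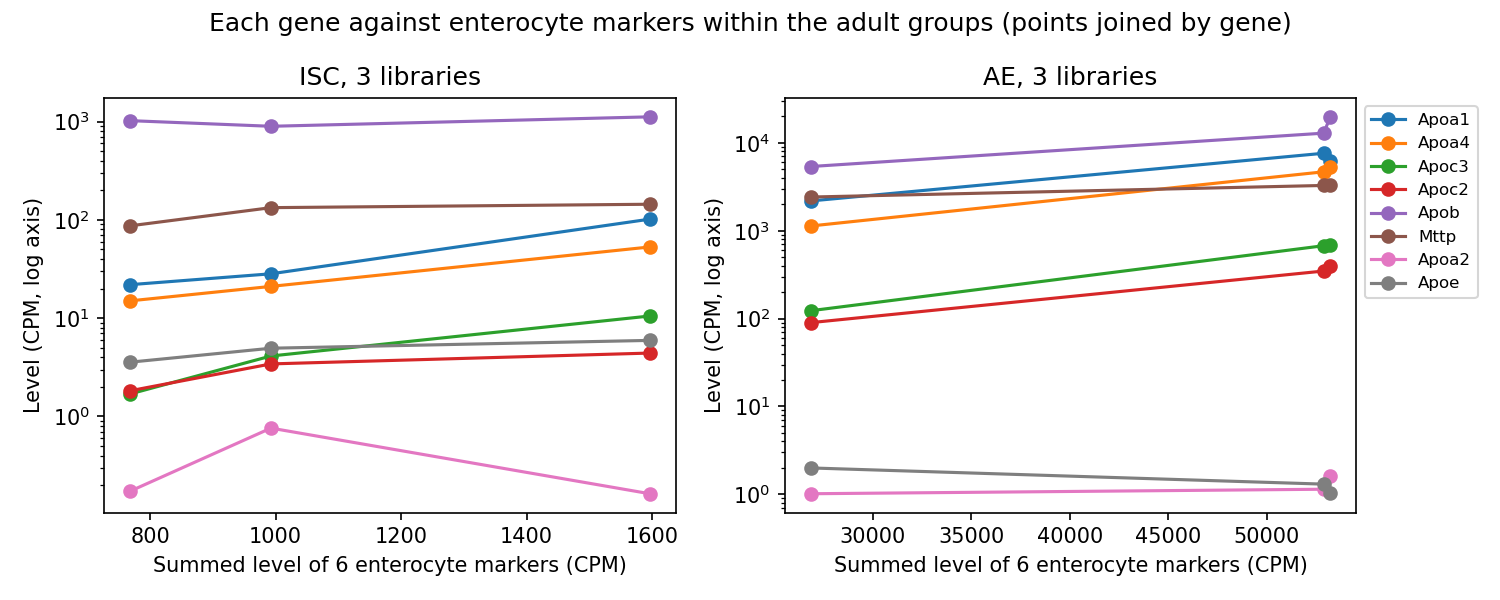
Level of each gene (CPM, log axis) against the summed level of 6 enterocyte markers (CPM) in the 3 ISC libraries (left) and the 3 AE libraries (right), with lines joining the points of a gene. In ISC the library at 1596 CPM of markers is highest for 7 genes, and in AE the library at 26873 is lowest for 7 genes, with Apoe reversed.

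The change from ISC to AE also differed from the change between the embryonic stages. That difference, tested as 1 contrast, passed for 5 of the 7 genes other than Apoa2, 4 of them higher (54.6% of all genes passed and 25.2% were higher). Apoa1, Apoa4, Apob and Mttp changed further upward from ISC to AE, and Apoe further downward. Apoc2 gave 1.04 (SE 3.55, adjusted p = 0.837) and Apoc3 2.97 (SE 2.36, adjusted p = 0.308), with standard errors derived from the F values, and DESeq2 gave 0.90 (SE 1.31, adjusted p = 0.595) and 3.03 (SE 1.19, adjusted p = 0.0234).

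The rest of the assembly and export route rose with the members from ISC to AE. Of 32 such genes tested, 30 rose and 1, Sec24b, fell, with a median log2 change of 2.48 beside -0.05 for all genes tested, of which 32.6% were called higher. Fabp1, a cytosolic fatty acid carrier, rose 107-fold to 2745 ± 1292 CPM, Mogat2, which makes diacylglycerol from absorbed monoacylglycerol, 56.2-fold to 287 ± 49.0, and Fabp2, the intestinal fatty acid carrier, 37.6-fold to 9195 ± 5180. Sar1b, the small GTPase that buds the carriers of chylomicrons from the endoplasmic reticulum, rose 5.16-fold (adjusted p = 3.04e-09), from 68.9 ± 3.42 to 356 ± 67.8 CPM.

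Between the embryonic stages 17 of the 32 rose and 1 fell, with a median log2 change of 0.32, beside 23.6% of all genes called higher and 25.6% lower. Prap1, a secreted lipid-binding protein of the gut, rose 21.1-fold to 27.4 ± 1.13 CPM, and Fabp1 7.09-fold to 38.7 ± 1.11. From E14.5 to ISC 9 rose and 11 fell, beside 30.2% of all genes called higher and 30.6% lower.

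The genes that act on finished particles were more mixed. Of 12 lipase and lipid exchange genes tested, 3 rose and 2 fell from ISC to AE, beside 32.6% of all genes higher and 35.2% lower: Soat2, which makes cholesteryl ester for export, rose 9.03-fold to 269 ± 62.7 CPM, while Soat1, the form found in most tissues, fell 7.97-fold to 45.4 ± 4.72. Abca1, the cholesterol efflux pump, rose 4.78-fold. Between the embryonic stages 2 of the 12 rose and 6 fell, beside 23.6% and 25.6% of all genes, Lpl, the lipase that ApoC-II activates, falling 3.06-fold to 8.97 ± 0.253 CPM.

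Of 16 receptor genes, 6 rose and 4 fell from ISC to AE, beside 32.6% and 35.2% of all genes. Cubn, a receptor that takes up ApoA-I among other ligands, rose 33.8-fold to 978 ± 514 CPM, Scarb1, the high-density lipoprotein receptor, 5.18-fold, and Lrp1, a remnant receptor, 3.23-fold. Between the embryonic stages 2 rose and 5 fell, beside 23.6% and 25.6% of all genes, among them Mylip, which directs the low-density lipoprotein receptor to degradation, 4.92-fold lower, and the receptor chaperone Lrpap1, 2.33-fold lower.

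Among 33 regulators of apolipoprotein genes tested, 17 rose and 7 fell from ISC to AE, beside 32.6% and 35.2% of all genes. Creb3l3, a membrane-bound factor known to act on Apoa4 and Apoc2, was at 1.90 ± 0.432 and 1.93 ± 0.159 CPM in the embryonic stages, at 19.3 ± 9.02 in ISC and at 420 ± 161 in AE. It did not pass between the embryonic stages (adjusted p = 0.977), where Apoa4 and Apoc2 rose, and rose 21.9-fold from ISC to AE. Within ISC it stood at 20.8, 27.4 and 9.57 CPM, highest in replicate 2 as Apoa4 was, and within AE at 255, 429 and 576, lowest in replicate 1. The part of Creb3l3 in the levels of Apoa4 and Apoc2 was not tested.

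Hnf4a, the nuclear receptor known to act on most of the 8 genes, stood at 301 ± 32.1, 1027 ± 23.0, 1689 ± 172 and 2157 ± 193 CPM. It rose 3.41-fold between the embryonic stages (adjusted p = 1.30e-07) and 1.28-fold from ISC to AE (adjusted p = 0.0204). Its relative Hnf4g rose 3.02-fold between the embryonic stages and 9.17-fold from ISC to AE to 1491 ± 349 CPM. Prdm1, which is known to hold back the adult pattern in the fetal gut, stood at 572 ± 36.2 and 561 ± 35.3 CPM in the embryonic stages, at 2.20 ± 0.624 in ISC and at 28.6 ± 12.7 in AE. It fell 260-fold from E14.5 to ISC (adjusted p = 1.34e-10) and rose 13.0-fold from ISC to AE, where it was 20.0-fold below E14.5 (adjusted p = 4.37e-09). Cdx1, an intestinal homeobox factor, rose 26.6-fold from E12.5 to E14.5 (adjusted p = 2.05e-09), and the bile acid receptor gene Nr1h4 6.51-fold.

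Apobec1 encodes the enzyme that edits the Apob transcript to the short form used in chylomicrons. It stood at 0.449, 0.178 and 0.183 CPM in E12.5, at 4.93, 4.31 and 5.32 in E14.5, at 16.4, 12.1 and 11.8 in ISC and at 105, 134 and 147 in AE, with no overlap between groups. It rose 16.8-fold from E12.5 to E14.5 (adjusted p = 1.30e-07), 2.77-fold to ISC (adjusted p = 1.32e-05) and 9.61-fold to AE (adjusted p = 5.62e-09), so it rose over the step at which Apob fell. Editing itself cannot be read from gene counts.

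Other apolipoproteins split. Of 13 tested, 7 rose and 1 fell from ISC to AE, beside 32.6% and 35.2% of all genes, the risers including the ApoL family members Apol9a, Apol10a and Apol7a at 55.2-fold, 48.6-fold and 37.2-fold. Apol7a also rose 3.09-fold between the embryonic stages. Near-identical ApoL copies could share reads, so their levels are uncertain. Apoc1, between Apoc2 and Apoe on the chromosome, had 61 counts in E12.5, 136 in E14.5 and 0 in all 6 adult libraries, and its E14.5 mean of 1.20 ± 0.159 CPM was at least 22.9-fold higher than the ISC floor of 3 counts over the group. Apoa5, the fourth gene of the chromosome 9 cluster, was at most 0.685 CPM in any library.

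Across the 12 libraries, which share their 4 groups, Pearson's r of log2 levels was 0.998 between Apoa4 and Apoc3, 0.994 between Apoc2 and Apoc3 and 0.993 between Apoa4 and Apoc2, and 0.926 between Apoa4 and Apoa1. Apob was less like these (0.737 with Apoc2 to 0.909 with Apoa1), and Apoe ran opposite to all others, from -0.738 with Apoa2 to -0.937 with Apob. The genes outside the set most like each member were Fabp2 for Apoa4 (r = 0.998), Arf6 for Apoc3 (0.996), Ksr1 for Apoc2 (0.997), Plekhg6 for Apoa1 (0.994), Bpnt1 for Mttp (0.998), Nudt4 for Apob (0.995), Rhno1 for Apoe (0.982) and Chmp6 for Apoa2 (0.907). These are descriptions over 12 points of 4 groups and carry no test.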

How the data were processed

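RNA was taken from 50000 sorted cells per library. Of it 50 ng went through Ovation amplification and NEBNext library preparation, per the labels' protocols. The authors deposited unnormalised read counts by gene symbol for each library. Among the tools in the submitters' processing notes are the aligner STAR 2.3.1z13 and the counter HTSeq 0.6.1p1, with mm9 as the build. The annotation and the strandedness of counting were not given in the sources used here. The closing entries that name no gene stayed out: reads outside genes were 33.4% to 58.1% of those listed, ambiguous reads 0.531% to 1.00%.

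All 12 libraries entered 1 model with edgeR 4.0.16 (R 4.3.3): its expression filter, TMM scaling (factors 0.696 to 1.16), 1 coefficient per group and quasi-likelihood F tests, with Benjamini-Hochberg adjustment over 15342 genes at 0.05. Log2 changes used a prior count of 0.125, and their standard errors were derived from the F values. Levels are TMM-scaled CPM, and levels per kb divide by the union exon length of GENCODE M21 on GRCm38, a later build than that of the counts. Correlations used log2 CPM with a prior count of 2. The library amplification means that reads do not stand for separate molecules, and exact intervals and the floor of 3 counts describe counting error alone. Ratios were compared with exact permutation tests (scipy 1.17.1), 9 in all.

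Replicates are biological per the submitters, 1 pool or gut each, and every pair within a group differed beyond sampling noise. On simulated counts of 15040 genes drawn for AE against ISC, 86.9% of genes changed by 1 on the log2 scale and 100% of those changed by 2 were recovered, with 6.5% of calls false.

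Named genes are the 8 members, a set of regulators and markers and, of each list, up to 3 with the largest AE against ISC change and 2 with the largest E14.5 against E12.5 change among those called and of at least 5 CPM. Sec24b and Mki67 lie outside that rule and were named after their values were seen. Members and lists were chosen with earlier results of these data known. Alternatives were DESeq2 1.42.0, limma-voom (limma 3.58.1), other scalings, no filter, the compared groups alone, a replicate block and leaving out libraries.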

Additional observations from a re-analysis of the deposited data

Results flagged for a closer look

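For 5 of the 7 genes other than Apoa2 the change from ISC to AE differed from the change from E12.5 to E14.5. The difference was tested by edgeR as 1 contrast over all 12 libraries, which 54.6% of all genes passed, with 25.2% higher. The difference in log2 change was 5.45 for Apoa1 (SE 0.73, adjusted p = 3.11e-05), 4.45 for Apob (SE 0.46, adjusted p = 3.35e-06), 4.20 for Apoa4 (SE 0.84, adjusted p = 0.000813) and 1.96 for Mttp (SE 0.25, adjusted p = 1.88e-05). For Apoe it was -1.56 (SE 0.37, adjusted p = 0.00256). Apob and Apoe stand out because of direction: Apob fell over the embryonic step and rose over the adult one, and Apoe did not pass over the embryonic step (adjusted p = 0.844) and fell over the adult one.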

How the results depend on the processing

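Of the alternatives for single genes, 1106 kept direction and side of the threshold, 48 kept direction and lost the call, 4 gained it and 7 changed sign, and 138 counts of called members stayed within 1.5 times while 8 did not. These counts are over all 8 genes, Apoa2 included. With limma-voom the count was 3 for E14.5 against E12.5 and 1 for ISC against E14.5, where 7945 and 9524 of 15342 genes were called. Leaving out 1 library gave 3 to 6 called members for E14.5 against E12.5, the lowest without any of the 6 embryonic libraries. Those fits called from 6151 of 15588 genes, without E14.5 replicate 1, to 8607 of 15593, without AE replicate 1. In AE against ISC all 7 genes other than Apoa2 passed, whichever library was left out. There the fits called from 9869 of 15756 genes, without ISC replicate 2, to 10546 of 15593, without AE replicate 1. DESeq2 and relative log expression scaling gave 5 for E14.5 against E12.5 and 2 for ISC against E14.5. In these 2 comparisons DESeq2 called 7863 and 9849 of 19807 genes, and that scaling 7519 and 9345 of 15342. No value that changed sign had passed with all libraries. Leaving out 1 library put the log2 change of Apoa2 between -0.24 and 1.17 for E14.5 against E12.5 and between -0.39 and 1.68 for ISC against E14.5. The ranges were -0.16 to 0.11 for Apoe in E14.5 against E12.5, -0.51 to 0.85 for Apoa1 in ISC against E12.5 and -0.0014 to 0.35 for Apoe in ISC against E12.5. Without ISC replicate 2 and AE replicate 1 together, chosen after seeing the data, the last 2 were -0.51 (adjusted p = 0.0108, so Apoa1 was then called lower) and -0.0069. Apoc3 passed in the difference of changes with DESeq2 (adjusted p = 0.0234). Apob lost its call in ISC against E12.5 without ISC replicate 1 (adjusted p = 0.0513). With total counts and no scaling factors the median log2 change of all genes from ISC to AE moved from -0.05 to -0.53, and calls from 5002 higher and 5395 lower to 3210 and 7532, while 6 members rose and 1 fell. Apoa2 was dropped by the filter when E14.5 and E12.5, ISC and E14.5 or ISC and E12.5 were tested alone. With a replicate block the called genes other than Apoa2 numbered 6 for E14.5 against E12.5, 3 for ISC against E14.5 and 5 for ISC against E12.5. All 7 passed in AE against ISC, AE against E14.5 and AE against E12.5, and 5 in the difference of changes. These counts were the same without the block. Of 15342 genes, the block fit called from 7258 (E14.5 against E12.5) to 12509 (AE against E12.5). Between libraries of the same number, correlations of deviations from the group means ran from -0.0806 to 0.0796. Whether libraries of the same number shared an animal or a batch cannot be read from these values. The causes of these shifts were not tested. Depth limits Apoc2, Apoc3 and Apoa2 at E12.5, with 2, 8 and 10 counts over the group.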
